A study of Mus musculus with 8 samples.

Results

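The p53 target genes described here are 10 genes that the transcription factor p53 switches on: Cdkn1a, Mdm2, Ccng1, Phlda3, Trp53inp1, Bax, Gdf15, Zmat3, Bbc3 and Eda2r. They were chosen by name, as the array features whose platform gene symbol is one of the 10, and each gene was represented by its brightest feature, the one with the highest mean over all arrays. The platform annotation named 22 features for 9 of the 10 genes, out of 31465 named features for 20863 genes, and gave none for Bax, which was not analysed here. Eda2r lay below the filter on dim features, so 8 of the 17234 tested genes are p53 target members.

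Lungs of newborn mice on a C57Bl/6J background were profiled on single-colour Agilent arrays, 4 from pups labelled Fgf10+/- and 4 from pups labelled wild-type. All pups of both genotypes breathed 85% oxygen between postnatal days 0 and 3. Fgf10 is a growth factor of the lung mesenchyme. The labels give the genotype as Fgf10+/- with no further description of the allele, and the sample titles call that group TG. The design names 4 independent samples a group, but no label gives litters. Whether a litter effect would lie in the spread that the tests use or in the difference between genotypes is unknown. No room-air arrays were used here, so every difference below is one between genotypes under oxygen.

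p53 is stabilised when DNA is damaged, and it then binds a pair of decamer half-sites near its target genes. Its targets halt the cell cycle (Cdkn1a, Ccng1), start cell death (Bax, Bbc3, Phlda3, Eda2r), change RNA processing (Zmat3) and autophagy (Trp53inp1), encode a secreted stress signal (Gdf15), and close a negative feedback loop, because Mdm2 marks p53 for destruction. In rodent lung, high oxygen is known to damage DNA and to raise p53 and Cdkn1a.

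To show where p53 half-sites lie near these genes, the 250 bases before annotated RefSeq start sites were searched on the GRCm38.p6 build. The table held 12 such windows for 8 of the 10 genes, all but Zmat3 and Trp53inp1. The p53 half-site decamer, a palindromic pattern that reads alike on both strands, was sought without mismatch. A full site was counted where a pair of half-sites lay next to each other or 1 base apart with at most 2 mismatches and with the central C and G of each kept. A half-site was present in 4 of the 12 windows, against 7.13% of all 32841 windows, and a full site in 3 of the 12, against 0.551% of all windows. In 38 windows of 29 further genes that p53 is known to switch on, 8 held a half-site and 1 a full site. Sequence outside the windows was not searched. Shown are both windows of Cdkn1a, whose features name several transcripts, those of Ccng1 and Mdm2, which hold a match, and that of Phlda3, the member that passed the test, written 5′ to 3′ on the gene's strand, with half-sites and full sites in capitals:
Cdkn1a upstream start, chr17:29090729-29090978, plus strand: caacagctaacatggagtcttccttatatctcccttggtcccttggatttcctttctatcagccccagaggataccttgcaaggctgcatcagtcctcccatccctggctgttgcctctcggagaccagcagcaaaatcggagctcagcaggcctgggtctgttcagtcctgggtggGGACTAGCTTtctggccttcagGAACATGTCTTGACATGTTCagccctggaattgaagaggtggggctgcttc
Cdkn1a downstream start, chr17:29093519-29093768, plus strand: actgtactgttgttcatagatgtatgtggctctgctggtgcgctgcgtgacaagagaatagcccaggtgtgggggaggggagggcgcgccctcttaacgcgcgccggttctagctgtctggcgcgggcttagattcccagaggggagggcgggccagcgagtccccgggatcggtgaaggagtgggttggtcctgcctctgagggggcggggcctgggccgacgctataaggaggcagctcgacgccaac
Ccng1, chr11:40755287-40755536, minus strand: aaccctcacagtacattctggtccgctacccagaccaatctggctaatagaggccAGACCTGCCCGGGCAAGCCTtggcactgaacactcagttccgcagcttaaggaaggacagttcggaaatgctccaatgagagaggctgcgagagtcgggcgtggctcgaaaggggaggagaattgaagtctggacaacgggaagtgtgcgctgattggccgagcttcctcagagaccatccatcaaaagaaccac
Mdm2, chr10:117710759-117711008, minus strand: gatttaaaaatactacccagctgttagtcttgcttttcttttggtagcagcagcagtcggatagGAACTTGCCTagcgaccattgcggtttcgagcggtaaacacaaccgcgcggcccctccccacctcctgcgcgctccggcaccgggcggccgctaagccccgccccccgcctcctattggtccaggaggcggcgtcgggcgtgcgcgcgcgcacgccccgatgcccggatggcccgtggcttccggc
Phlda3, chr1:135765835-135766084, plus strand: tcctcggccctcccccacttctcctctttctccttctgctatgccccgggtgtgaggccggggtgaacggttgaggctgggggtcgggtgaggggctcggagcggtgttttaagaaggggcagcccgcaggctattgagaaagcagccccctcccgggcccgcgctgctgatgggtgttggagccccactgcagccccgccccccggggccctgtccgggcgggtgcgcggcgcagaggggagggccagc

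The Cdkn1a full site, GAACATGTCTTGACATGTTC, began 51 bases before the upstream start site and had 1 mismatch, and a separate half-site, GGACTAGCTT, began 73 bases before it. The upstream and downstream Cdkn1a start sites lay 2790 bases apart, and the downstream window held no match. The Ccng1 full site, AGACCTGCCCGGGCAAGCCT, began 195 bases before its start with 1 mismatch, and the Mdm2 window held the half-site GAACTTGCCT 186 bases before its start. The third full site was in the window of Bax. A match is a description of letters and not evidence of binding, and the windows of Phlda3, Bbc3, Gdf15 and Eda2r held none of these letters.

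Before the results, some arrays need a description. Correlations between arrays lay between 0.975 and 0.985 within groups and between 0.974 and 0.987 across groups (Pearson's r across tested genes, which are not independent). The brightest Fgf10 feature averaged 8.04 ± 0.20 for the label Fgf10+/- and 7.81 ± 0.28 for wild-type (log2 intensity, mean ± SD of 4 arrays each, two-sided exact permutation p = 0.2). All 10 of its features had the higher mean in arrays labelled Fgf10+/-, and where they lie relative to the changed part of the gene is unknown, so Fgf10 does not check the labels. Wild-type array 1 stood apart in inflammatory cytokine genes, whose mean lay 1.79 above their mean over all arrays there. The same measure was -0.83 to 0.99 in the arrays labelled Fgf10+/-, and -0.67 to -0.22 for wild-type arrays 2 to 4. Wild-type array 2 was highest in 4 liver genes, whose mean lay 1.18 above their mean over all arrays, with the other 7 arrays between -0.53 and 0.15. It had the highest Cdkn1a and Phlda3 of all arrays, and the part of liver markers in those values was not tested. Wild-type array 4 was highest in heart muscle genes, whose mean lay 1.20 above their mean over all arrays, with the other 7 arrays between -0.53 and 0.020. It was also highest in the oesophagus and thyroid list (0.81) and the thymus list (0.79), each over 3 genes past the filter. Both lists were dim, with a mean level of at most 3.28 in any array. Wild-type array 4 also had the highest Gdf15 and Zmat3 and the lowest Ccng1 of all arrays, and the part of these markers in those values was not tested. Arrays 2 and 3 labelled Fgf10+/- and wild-type array 3 had low Xist (1.93 to 2.63) and high Eif2s3y (10.07 to 10.25), and the other 5 arrays the reverse. Lung markers were bright in every array. The mean over 10 epithelial genes was 12.490 to 12.626 with the label Fgf10+/- and 12.358 to 12.488 in the wild type. Every array labelled Fgf10+/- thus lay above every wild-type array by a narrow gap. The median log2 difference of these genes was 0.12, with no gene called by limma, and their part in the p53 target values was not tested. Of 6 thymus markers Rag1, Ptcra and Foxn1 lay below the filter.

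In lungs labelled Fgf10+/-, 1 of the 8 tested p53 targets fell, Phlda3, and none rose. Over all tested genes limma called 0.795%, with 0.569% lower. Beside Phlda3, the values of Cdkn1a, Zmat3 and Mdm2 were lower in every array labelled Fgf10+/- than in any wild-type array, and those of Bbc3 were higher in every array, but these 4 genes did not pass the test. Groups lay apart in this way in 4 of the 8 tested members and in 6.64% of all tested genes, 3.51% lower and 3.13% higher. The median log2 difference over the 8 tested members was -0.28, beside 0.0069 over all tested genes, and 6 of the 8 differences were negative, beside 48.7% of all. A gene was called at a limma adjusted p below 0.05 over all 17234 genes.

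**Figure D1:**
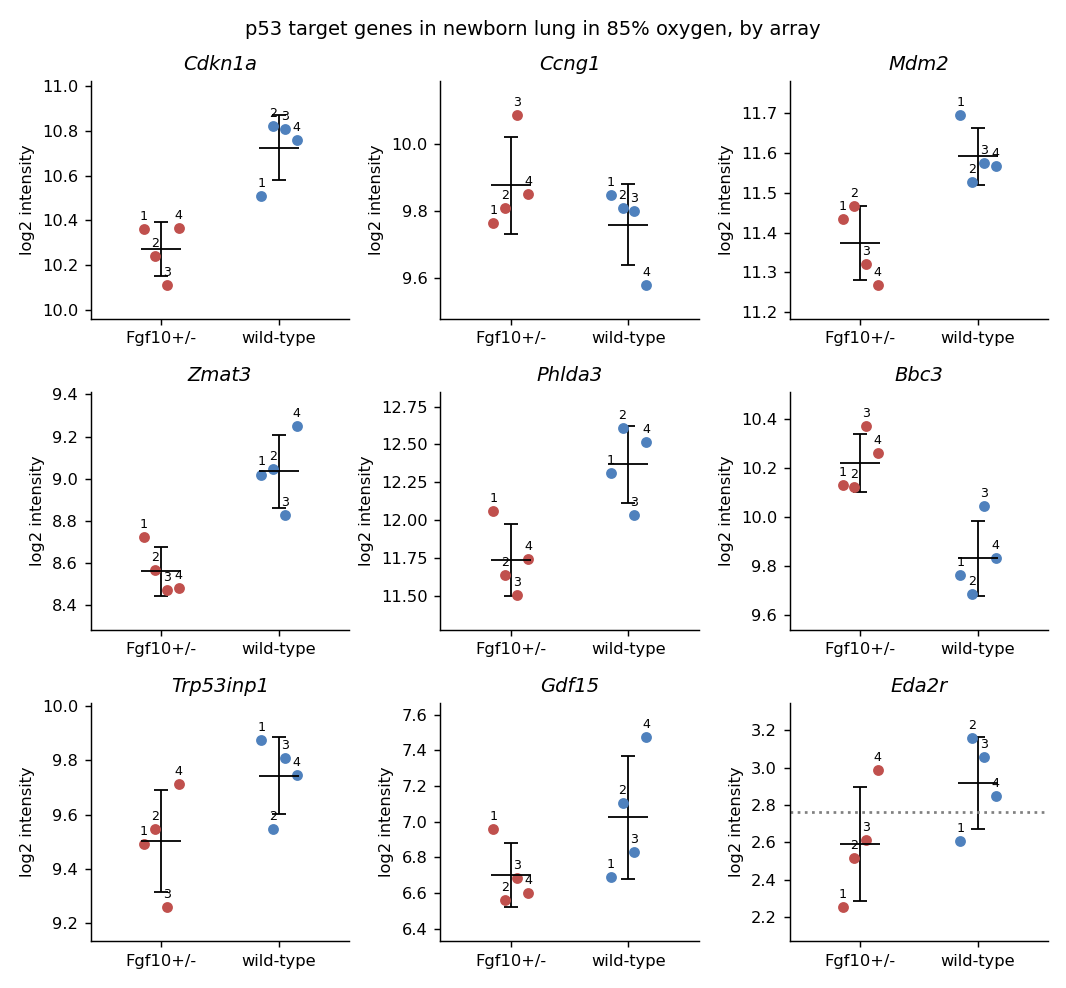
Log2 intensity of the 9 p53 target genes with a named feature, 1 point per array with its replicate number, arrays labelled Fgf10+/- (red) left of wild-type arrays (blue), bars for mean and SD (n = 4). The groups do not overlap for Cdkn1a, Mdm2, Zmat3 and Bbc3, while Phlda3 overlaps through 1 array of each group; the dotted line in the Eda2r panel is the filter level of 2.76.

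Cdkn1a encodes p21, the inhibitor of cyclin-dependent kinases through which p53 halts the cell cycle. It read 10.36, 10.24, 10.11 and 10.37 in arrays 1 to 4 labelled Fgf10+/-, against 10.51, 10.82, 10.81 and 10.76 in wild-type arrays 1 to 4 (log2 intensity). The groups did not overlap, and wild-type array 1 was the lowest wild-type array and array 3 the lowest array labelled Fgf10+/-. The difference was -0.45 (SE 0.097, 95% interval -0.66 to -0.24), a 1.37-fold lower level that missed the threshold (limma adjusted p = 0.0506, two-sided exact permutation p = 0.0286, the smallest that 4 against 4 arrays allow). Without wild-type array 1 the difference was -0.53 and passed (limma adjusted p = 0.0142), and without any one of the other 7 arrays it did not pass (limma adjusted p = 0.0854 to 0.160).

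Cdkn1a was measured by 12 features, which share the arrays and are not replicates of the condition. Of these, 10 are annotated to the transcript NM_007669, and in all 10 the 4 arrays labelled Fgf10+/- lay below the 4 wild-type arrays, by -0.54 to -0.45. With every named feature past the filter fitted on its own, 6 of the 10 were called lower. Of all 25758 features, 0.726% were called in either direction and 0.544% lower, and groups lay apart in either direction in 6.25%. Whether these 10 are repeats of 1 probe or different probes is unknown. The brightest feature, which represents the gene, was among the 4 that missed the threshold (limma adjusted p = 0.055 over features). With the mean of all 12 features in its place, Cdkn1a fell by 0.54 (limma adjusted p = 0.03). That mean takes in both dimmer features described next, 1 of which differed by -1.57, and a mean of the NM_007669 features alone was not fitted.

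A further Cdkn1a feature is annotated to the transcript NM_001111099. It read 4.46, 5.74, 3.57 and 5.17 in arrays 1 to 4 labelled Fgf10+/-, against 6.46, 6.41, 6.14 and 6.23 in wild-type arrays 1 to 4. All arrays labelled Fgf10+/- lay below the wild-type arrays, with an SD of 0.94 among the arrays labelled Fgf10+/- and 0.15 among the wild-type arrays. The difference was -1.57 (SE 0.38, 95% interval -2.39 to -0.75) and did not pass (limma adjusted p = 0.0925 over features). The table holds no detection calls, so whether its low readings lay above background is unknown and no fold is given. Whether its difference departs from that of the NM_007669 features was not tested, and the table of start sites does not say which of the 2 Cdkn1a starts shown above either transcript uses. The last feature, annotated to U09507, averaged 3.70 ± 0.30 with the label Fgf10+/- and 3.68 ± 0.94 in the wild type (SD over 4 arrays each), with a difference of 0.019, and no detection call says whether it lay above background.

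**Figure D2:**
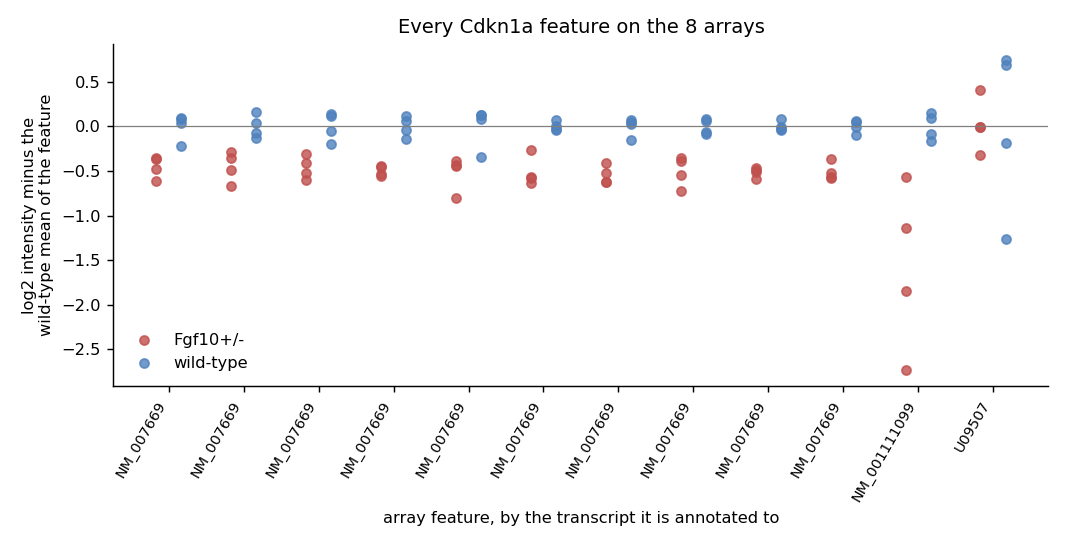
Each of the 12 Cdkn1a features (x axis, by annotated transcript), plotted as log2 intensity minus that feature's wild-type mean, 1 point per array, arrays labelled Fgf10+/- in red and wild-type arrays in blue. The 10 NM_007669 features differ by -0.54 to -0.45, the NM_001111099 feature by -1.57, and the dim U09507 feature shows no separation.

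Ccng1, which encodes cyclin G1, a partner of a phosphatase that acts on Mdm2, had close values in both groups. It read 9.76, 9.81, 10.09 and 9.85 in arrays 1 to 4 labelled Fgf10+/-, against 9.85, 9.81, 9.80 and 9.58 in wild-type arrays 1 to 4. The groups overlapped, array 3 labelled Fgf10+/- being high and wild-type array 4 low. The difference was 0.12 (SE 0.10, 95% interval -0.10 to 0.34, limma adjusted p = 0.734) and was 0.048 without array 3 labelled Fgf10+/-. Its start site is 1 of those with a full p53 site within 250 bases.

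Mdm2, the ubiquitin ligase of the feedback loop, read 11.43, 11.47, 11.32 and 11.27 in arrays 1 to 4 labelled Fgf10+/-, against 11.69, 11.53, 11.57 and 11.57 in wild-type arrays 1 to 4. The groups lay apart by a narrow gap, between 11.47 and 11.53. The difference was -0.22 (SE 0.077, 95% interval -0.38 to -0.051), a 1.16-fold lower level that did not pass (limma adjusted p = 0.283, exact permutation p = 0.0286). Its relative Mdm4, which blocks p53 without degrading it, differed by 0.85 (SE 0.38, limma adjusted p = 0.426), with wild-type arrays spread from 5.98 to 8.41.

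Zmat3, an RNA-binding zinc finger protein that changes splicing, read 8.72, 8.56, 8.47 and 8.48 in arrays 1 to 4 labelled Fgf10+/-, against 9.02, 9.05, 8.83 and 9.25 in wild-type arrays 1 to 4. The groups did not overlap. The difference was -0.48 (SE 0.12, 95% interval -0.73 to -0.22, 1.39-fold lower) and did not pass (limma adjusted p = 0.0983, exact permutation p = 0.0286).

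Among the genes of cell death, Phlda3, a small protein with a pleckstrin homology domain that keeps the survival kinase AKT from the membrane, fell. It read 12.06, 11.64, 11.51 and 11.75 in arrays 1 to 4 labelled Fgf10+/-, against 12.31, 12.61, 12.04 and 12.51 in wild-type arrays 1 to 4. The groups overlapped, because array 1 labelled Fgf10+/- read slightly above wild-type array 3. The difference was -0.63 (SE 0.13, 95% interval -0.91 to -0.34), a 1.55-fold lower level (limma adjusted p = 0.0448, exact permutation p = 0.0571). Phlda3 was still called when array 1 labelled Fgf10+/- or wild-type array 3 was left out, the arrays that overlap. It was not called without any one of the other 6 arrays (limma adjusted p = 0.0501 without wild-type array 1 to 0.154 without wild-type array 2), and its difference stayed between -0.74 and -0.55. Nor was Phlda3 called without the filter on dim features (limma adjusted p = 0.0516) or with the mean of all features of each gene (0.0630). The same held with array weights (0.0555) and without the variance trend of the fit (0.270).

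Bbc3 had a positive difference. It encodes PUMA, a BH3-only protein that triggers cell death at mitochondria. It read 10.13, 10.12, 10.37 and 10.26 in arrays 1 to 4 labelled Fgf10+/-, against 9.77, 9.69, 10.04 and 9.83 in wild-type arrays 1 to 4. Every array labelled Fgf10+/- was above every wild-type array. The difference was 0.39 (SE 0.10, 95% interval 0.17 to 0.61, 1.31-fold higher) and did not pass (limma adjusted p = 0.112, exact permutation p = 0.0286).

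Eda2r, a receptor of the tumour necrosis factor family that binds ectodysplasin A2, was too dim to test. Its brighter feature read 2.26, 2.52, 2.61 and 2.99 in arrays 1 to 4 labelled Fgf10+/-, against 2.61, 3.16, 3.06 and 2.85 in wild-type arrays 1 to 4. The groups overlapped around the filter level of 2.76, and the other feature averaged 2.69 ± 0.60 with the label Fgf10+/- and 2.71 ± 0.36 in the wild type (SD over 4 arrays each). Its ligand gene Eda differed by -0.39 (SE 0.28, limma adjusted p = 0.667).

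Trp53inp1, a stress protein that promotes autophagy and cell death, read 9.49, 9.55, 9.26 and 9.71 in arrays 1 to 4 labelled Fgf10+/-, against 9.87, 9.55, 9.81 and 9.74 in wild-type arrays 1 to 4. Wild-type array 2 lay among the arrays labelled Fgf10+/-. The difference was -0.24 (SE 0.11, 95% interval -0.49 to 0.0076, limma adjusted p = 0.467, exact permutation p = 0.0857), and it was -0.16 without array 3 labelled Fgf10+/-. A dimmer feature of the gene differed by -0.32.

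Gdf15, a secreted member of the TGF-beta family released by stressed cells, read 6.96, 6.56, 6.68 and 6.60 in arrays 1 to 4 labelled Fgf10+/-, against 6.69, 7.10, 6.83 and 7.47 in wild-type arrays 1 to 4. The groups overlapped, and wild-type array 4 was the highest of all. The difference was -0.32 (SE 0.20, 95% interval -0.75 to 0.11, limma adjusted p = 0.589, exact permutation p = 0.171) and was -0.17 without wild-type array 4. The gene of its brainstem receptor, Gfral, was below the filter.

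**Figure D3:**
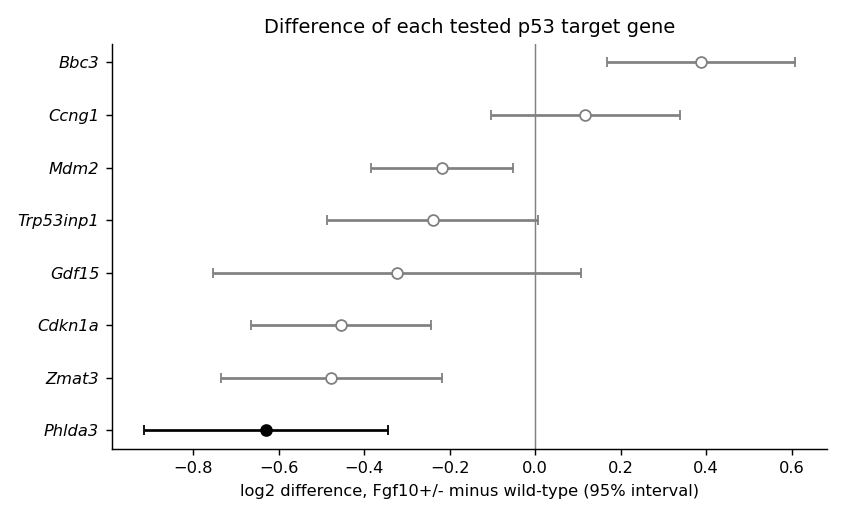
Log2 difference (arrays labelled Fgf10+/- minus wild-type arrays, n = 4 each) of the 8 tested p53 target genes with 95% intervals from limma. Phlda3 (filled) passed at -0.63, 7 genes (open) did not, and the intervals of Cdkn1a, Zmat3, Mdm2 and Bbc3 leave out 0 before adjustment.

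The order of the arrays differed from member to member. Array 3 labelled Fgf10+/- had the lowest value of all arrays for 4 of the 8 tested members, Cdkn1a, Phlda3, Zmat3 and Trp53inp1, and the highest for Bbc3 and Ccng1. Among wild-type arrays, Cdkn1a was lowest in array 1, Phlda3 and Zmat3 in array 3, and Trp53inp1, Mdm2 and Bbc3 in array 2. The same array 3 labelled Fgf10+/- and wild-type array 1 also had the lowest cell cycle values of their groups. The mean of 21 cell cycle genes lay 0.95 below its mean over all arrays in array 3 labelled Fgf10+/- and 0.016 above it in wild-type array 1, with wild-type arrays 2 to 4 at 0.59 to 0.80 above it.

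**Figure D4:**
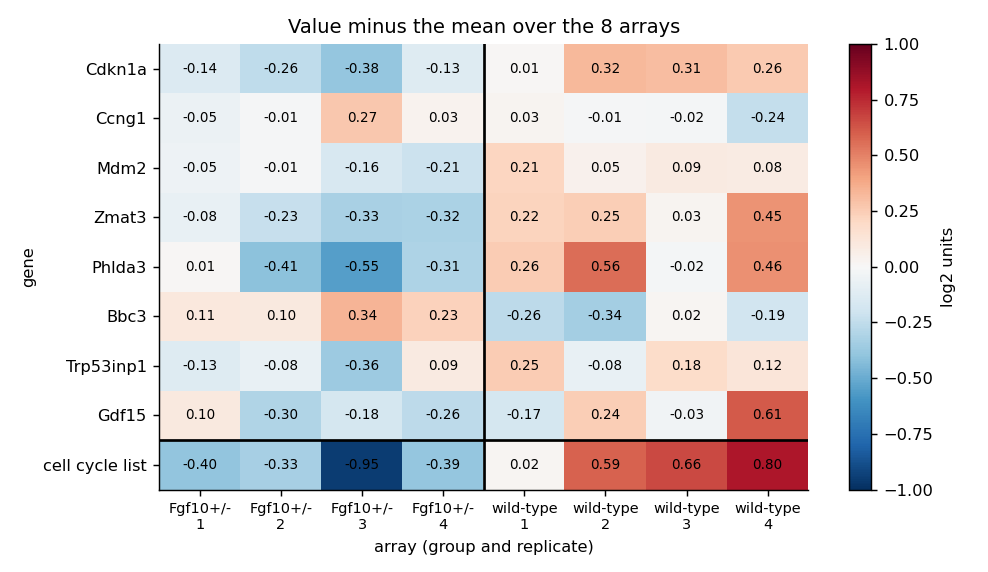
Value of each tested p53 target gene in each array minus its mean over the 8 arrays (log2 units), arrays labelled Fgf10+/- left of the line and wild-type arrays right of it, with the mean of 21 cell cycle genes in the bottom row. Array 3 labelled Fgf10+/- is lowest for 4 members and for the cell cycle genes (-0.95), and Bbc3 runs the other way.

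p21 is known to hold back cell cycle genes through the DREAM repressor complex, so a list of 23 such genes was read beside Cdkn1a. Of the 21 tested, 9 fell, beside 0.569% of all tested genes, and 12 did not pass. All 21 had a negative difference, beside 48.7% of all tested genes (median -1.10, beside 0.0069 over all tested genes). Among those that fell, the log2 difference was -1.48 for cyclin B2 (Ccnb2), -1.70 for the spindle protein Prc1, -1.42 for survivin (Birc5), -1.32 for the anaphase activator Cdc20 and -1.41 for cyclin A2 (Ccna2), with limma adjusted p = 0.00377 to 0.0140. Of those that did not pass, Foxm1, a transcription factor of mitosis, had -0.87 (SE 0.22), Ect2 -0.78 (SE 0.20), Bub1b -1.01 (SE 0.27), Cdk1 -0.92 (SE 0.26) and Melk -1.53 (SE 0.51). The mean level of the 22 listed genes with a feature was 6.12 to 6.71 with the label Fgf10+/- and 7.02 to 7.79 in the wild type. The count of genes that fell was 5 when array 3 labelled Fgf10+/- was dropped, 2 when wild-type array 2 was and 4 when wild-type array 4 was. Cdkn1a, which missed the threshold, also had a negative difference (-0.45, limma adjusted p = 0.0506). The relation of Cdkn1a to these genes was not tested. In RNA of a whole tissue sample, fewer cells of a type and less RNA per cell cannot be told apart.

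A wider list of 35 genes that p53 is known to switch on was read next. Of the 33 tested, 1 rose, none fell and 32 did not pass, while 7 had an unadjusted p below 0.05, beside 11.2% of all tested genes. The median was -0.11 with 23 negative differences, and groups lay apart in 5 of the 33, 3 lower and 2 higher, beside the 6.64% of all tested genes. Dram1, a lysosomal membrane protein of p53-driven autophagy, rose. It read 10.61, 10.47, 10.79 and 10.60 in arrays 1 to 4 labelled Fgf10+/-, against 10.26, 10.01, 10.11 and 10.17 in wild-type arrays 1 to 4. The groups did not overlap, and the difference was 0.48 (SE 0.095, 95% interval 0.27 to 0.68, limma adjusted p = 0.032). Dram1 was still called without array 2 labelled Fgf10+/- or wild-type array 1, but not without any one of the other 6 arrays (limma adjusted p = 0.0657 to 0.119) nor with Xist as a covariate (limma adjusted p = 0.0721), without the variance trend of the fit (0.215) or with the replicate number as a block (0.0514).

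Genes of this wider list that did not pass differed in both directions. Psrc1, a microtubule protein of the mitotic spindle, had the largest difference of the list at -1.08 (SE 0.24, limma adjusted p = 0.0663). It read 5.93, 6.00, 5.14 and 5.68 in arrays 1 to 4 labelled Fgf10+/-, against 6.88, 7.13, 6.66 and 6.38 in wild-type arrays 1 to 4, with no overlap. Pmaip1, which encodes the BH3-only protein NOXA, had -0.72 (SE 0.23, limma adjusted p = 0.221), also without overlap and opposite in sign to Bbc3. The thiamine transporter Slc19a2 had -0.42 (SE 0.15), the TRAIL receptor Tnfrsf10b -0.41 (SE 0.16) and the sugar reductase Dcxr 0.32 (SE 0.11).

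Upstream of the targets, none of 17 tested p53 relatives and regulators was called by limma, 3 had an unadjusted p below 0.05 (11.2% of all tested genes did), and the median was 0.10. Trp53 itself was not analysed here, because no feature carries its name in the annotation used. Hipk2, a kinase that phosphorylates p53, had 0.36 (SE 0.11, limma adjusted p = 0.165), with groups that did not overlap. The acetyltransferase genes Kat5 and Ep300 had 0.34 (SE 0.15) and 0.21 (SE 0.17), and the ubiquitin ligase Cop1 had -0.12 (SE 0.090).

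Downstream, the other genes of the mitochondrial death pathway did not pass either. None of 16 tested BCL2 family and caspase genes was called by limma, and the median was 0.026. At an unadjusted p below 0.05 there were 2 of the 16, a share near the 11.2% of all tested genes. The BH3-only genes Bmf and Bik had 0.49 (SE 0.14, limma adjusted p = 0.162) and 0.45 (SE 0.20), the survival gene Bcl2 0.31 (SE 0.16), the caspase inhibitor Xiap 0.11 (SE 0.073) and Bad -0.14 (SE 0.098). Gdf15 is also switched on by ATF4, the factor of the integrated stress response, and none of 11 tested genes of that list was called by limma (median -0.055). Of the 11, 1 had an unadjusted p below 0.05, Ddit4, again near the 11.2% of all tested genes. Ddit4 and Sesn2 are also on the wider list of p53 targets above, so the lists overlap. Ddit4 had -0.30 (SE 0.13), Ddit3 -0.29 (SE 0.17), Sesn2 -0.15 (SE 0.14), Nupr1 0.12 (SE 0.098) and Psat1 -0.077 (SE 0.11).

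Paralogues of the members, which are not classed with the p53 targets here, gave no call by limma among 11 tested paralogues and partners, and 2 had an unadjusted p below 0.05, beside 11.2% of all tested genes. Phlda1, the relative of Phlda3, averaged 11.89 with the label Fgf10+/- and 11.88 in the wild type, a difference of 0.018 (SE 0.12), and Phlda2 averaged 3.53 with the label Fgf10+/- and 2.81 in the wild type (SE of the difference 0.47). Cdkn1b and Cdkn1c, which encode the related inhibitors p27 and p57, had 0.34 (SE 0.13, limma adjusted p = 0.331) and 0.028 (SE 0.11). Ccng2 had 0.22 (SE 0.30) and Trp53inp2 -0.16 (SE 0.092). Among zinc finger relatives of Zmat3, Zmat4 had 1.38 (SE 0.31, limma adjusted p = 0.0615) with no overlap between groups, and Zmat1, Zmat2 and Zmat5 had 0.093 to 0.16. Whether any paralogue differed from its member was not tested.

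**Figure D5:**
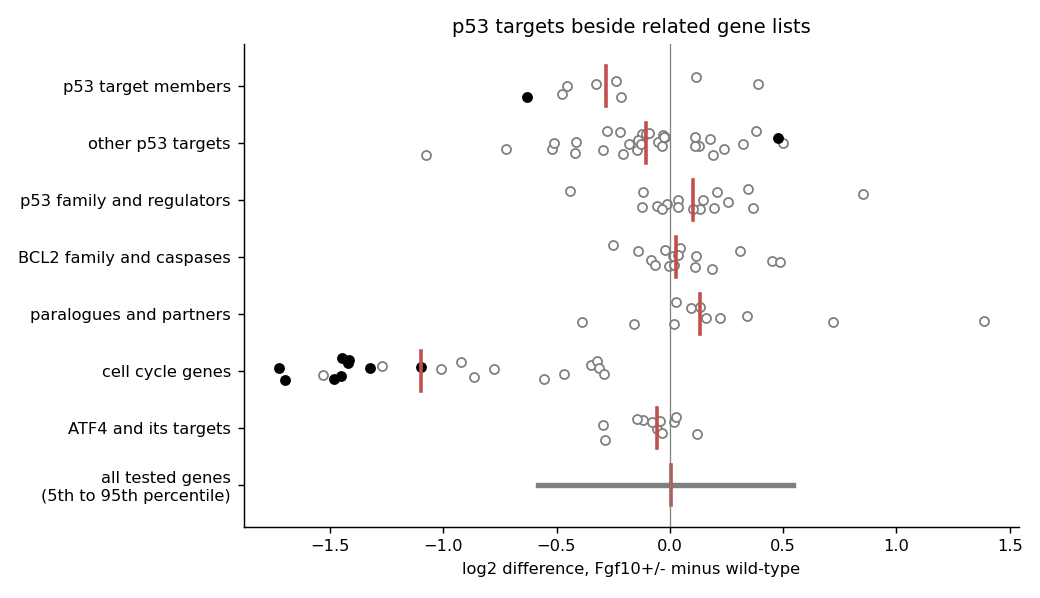
Log2 difference (arrays labelled Fgf10+/- minus wild-type arrays) of each tested gene in 7 lists, filled where limma called the gene, with each list's median in red and the 5th to 95th percentile of all tested genes (-0.58 to 0.54) at the bottom. The members have a median of -0.28, the other p53 targets -0.11 and the cell cycle genes -1.10.

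Markers of other cells were read beside the members. The mean of 10 macrophage genes was 8.14 to 8.44 with the label Fgf10+/- and 8.32 to 8.96 in the wild type, with no gene called by limma, and its part in the p53 target values was not tested. With the Xist level as a covariate, Phlda3 differed by -0.54 (limma adjusted p = 0.0309) and Cdkn1a by -0.44 (limma adjusted p = 0.105).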

How the data were processed

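Total RNA of lungs was amplified with Agilent's low-input kit and hybridised to 8 single-colour arrays, per the labels' protocols. The authors deposited log2 intensities for 62976 features, and the submitters' processing notes name limma without a version. The deposited log2 columns share their quantiles, as quantile-normalized values do, so none was applied again. How background was corrected is not stated in the labels or the header, the table holds no detection calls, and precision is limited by the number of arrays. Features with missing values (189) were left out. Symbols came from the platform annotation, and 2933 of 31465 were updated through RefSeq accessions (29050 matched). Features with a mean below the 30th percentile of all features (2.76) were removed, and the brightest feature of each gene was tested with limma 3.58.1 in R 4.3.3 (lmFit, eBayes with a variance trend, two-sided, Fgf10+/- minus wild-type, Benjamini-Hochberg over 17234 genes). Exact permutation tests used the 70 assignments of 4 against 4 arrays. The fit was tested on simulated data with independent noise for each gene and added differences larger than those of the tested members. That simulation does not show how well differences of the members' size are found. Members and lists were chosen with earlier results of these data known. Genes named beside the members are, per list, up to 5 called and up to 5 uncalled with the smallest p, Fgf10, Trp53 where measured, and relatives of members. Alternatives covered filters, features, normalization, variance model, array weights, the replicate block, Xist as a covariate, symbols, thresholds and leaving out each array.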

Additional observations from a re-analysis of the deposited data

Results flagged for a closer look

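In 11 of 114 sets of 4 values, 1 array lay far from the other 3 by Dixon's criterion at its 95% level. Chance alone gives this in about 1 of 20 sets, but these sets share arrays and are not independent. A set was a gene or Cdkn1a feature in 1 group. The genes were the members, Fgf10 and those picked per list by their p. Phlda1, Cdkn1c, Ccng2, Zmat1, Zmat2, Zmat5 and Gfral were not screened. Among the members, Ccng1 read 9.58 in wild-type array 4, with the next value at 9.80. One Cdkn1a feature of the NM_007669 set read 9.82 in array 3 labelled Fgf10+/-, below the next at 10.19, and 10.28 in wild-type array 1, below the next at 10.71. Of the cell cycle genes, Ect2 read 7.17 in array 1 labelled Fgf10+/-, above the other 3, while in wild-type array 1 Birc5 read 10.28 and Ccna2 8.58, both below the other wild-type arrays. Cop1 read 10.66 in array 3 labelled Fgf10+/- and Kat5 read 10.82 in wild-type array 3, both above the rest of their group. In wild-type array 4 Trp53inp2 read 11.52, Phlda2 3.81 and Eda 5.78, each above the other wild-type arrays.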

How the results depend on the processing

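The differences of the 8 tested members, Dram1, Psrc1, Pmaip1, Dcxr, Slc19a2, Hipk2, Bmf, Zmat4 and Fgf10 kept their sign under every alternative run, those of other genes were not followed, and the median of the tested p53 targets stayed between -0.32 and -0.23 and that of the other p53 targets between -0.13 and -0.063. Counts of calls moved. Of the members (main count 1), limma called 0 without a filter, 0 without the variance trend and 0 at an adjusted p of 0.01, 2 with a filter at the 50th percentile (Cdkn1a and Phlda3), 2 with robust eBayes, 3 at an adjusted p of 0.1 (with Zmat3), and 0 to 1 with 1 array left out; in the runs with 0, 5 to 6 members had an unadjusted p below 0.05, beside 9.38% to 11.2% of all tested genes. With the mean of all features, array weights or wild-type array 1 left out, Cdkn1a was the called member in place of Phlda3. Among all genes the count was 137, and it was 1 without the variance trend, 80 with Xist as a covariate, 21 at an adjusted p of 0.01, 278 at 0.1, and 34 (without wild-type array 2) to 173 (without wild-type array 1) with 1 array left out. Of the other p53 targets (main count 1), 2 were called with the 50th percentile filter, robust eBayes, array weights or an adjusted p of 0.1. The count was 0 without the variance trend, with the replicate block, with Xist or at 0.01, and 0 to 1 with 1 array left out. Where none was called, 5 to 8 had an unadjusted p below 0.05, beside 9.28% to 12.2% of all tested genes. Of the cell cycle genes (main count 9), 0 were called without the variance trend, 5 with robust eBayes, 2 at 0.01, and 2 to 10 with 1 array left out. Without the variance trend 15 had an unadjusted p below 0.05, beside 10% of all tested genes. The cause of these moves was not tested, except that a higher or lower threshold calls more or fewer genes by construction. Deviations of same-numbered arrays from their group means correlated by -0.064 to 0.067. The arrays numbered 4 were each other's best match, and wild-type array 3 matched array 3 labelled Fgf10+/- best, but not the reverse. Whether replicate numbers pair the arrays was not tested. With the replicate block 116 genes were called, Phlda3 among them (limma adjusted p = 0.0335) and Cdkn1a not (0.0906). The alternatives for the other p53 targets, the cell cycle genes and the medians were chosen after seeing the data.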
